A study of Mus musculus with 8 samples.

Results

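The genes described here are Foxp3 and the 5 genes of the Ikaros family, Ikzf1 (Ikaros), Ikzf2 (Helios), Ikzf3 (Aiolos), Ikzf4 (Eos) and Ikzf5 (Pegasus). They are named members, taken by gene symbol from the 53465 Ensembl gene IDs of the count tables, and all 6 were found and passed the filter on low counts. RNA was sequenced from regulatory T cells (Tregs) that had been polarized in culture from CD4+ T cells of wild type C57BL/6 mice. Cells were kept without drug (control, 4 libraries) or with BMS309403 at 50 µM (4 libraries). BMS309403 is a synthetic compound that binds fatty acid-binding proteins, and the study names it an inhibitor of FABP5. The series holds no other group. Both groups came from spleen and lymph node cells and shared the first 72 h of culture, on plates with anti-CD3 at 5 µg/mL. Their medium had anti-CD28 at 0.5 µg/mL, IL-2 at 100 U/mL, TGF-β at 5 ng/mL and antibodies that block IL-4, IL-12 and IFN-γ. The labels do not state age, vehicle or the time in the drug, nor whether each replicate had its own mouse or culture. P-values therefore measure only the spread between these libraries, which may be technical. Libraries held 32923433 to 44644485 counts, of which Foxp3 had 31217 to 54271, Ikzf2 851 to 2503 and Ikzf5 1472 to 1934. The cells were selected on CD4 and not sorted on Foxp3, so the cultures can hold cells that never expressed it, and in such bulk samples fewer cells that express a gene and less of its RNA per cell cannot be told apart. An effect of blocking FABP5 cannot be told apart from another effect of the compound.

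Foxp3 is the forkhead transcription factor that sets Treg identity. Signals from the T cell receptor, TGF-β and IL-2 turn the gene on, and its protein works in complexes that raise some genes and silence others. Ikaros family proteins are zinc finger transcription factors of the blood system. Their fingers near the start of the protein hold DNA, those near its end pair the proteins with each other, and they bring corepressor complexes such as NuRD to their targets. Eos is a known partner of Foxp3 in gene silencing, and Helios marks many Tregs and helps keep them stable.

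Foxp3, Ikzf2 and Ikzf4 rose with BMS309403, Ikzf3 fell, and Ikzf1 and Ikzf5 did not pass the test (edgeR's quasi-likelihood test over 14443 genes, called at a Benjamini-Hochberg adjusted p under 0.05). So 4 of 6 were called, where 36.8% of all tested genes were. Of these 3 were higher, as 18.7% of tested genes were, and 1 was lower, as 18.1% were. The groups of 4 libraries did not overlap for those 4 genes, as was so for 33.8% of all tested genes (17.7% higher and 16.1% lower). Levels are given as CPM, the counts scaled to the library's total after TMM adjustment.

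**Figure D1:**
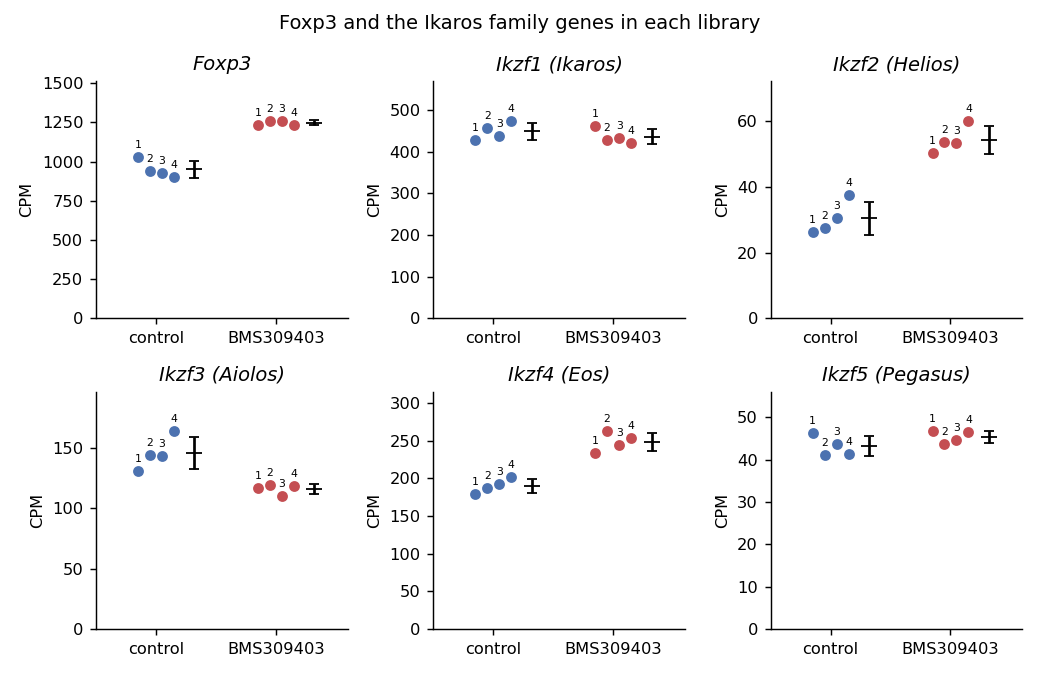
CPM of each gene (y axis, from 0) in the 4 control libraries (blue) and the 4 BMS309403 libraries (red), numbered by replicate, with mean and SD in black. Foxp3, Ikzf2 and Ikzf4 lie higher in every treated library than in any control library, Ikzf3 lies lower, and Ikzf1 and Ikzf5 overlap.

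Foxp3 (ENSMUSG00000039521, chrX:7573644-7595245, plus strand, GRCm38) was at 1029, 942, 929 and 901 CPM in control replicates 1 to 4. With BMS309403 it was at 1234, 1259, 1261 and 1234 CPM. The lowest treated library thus lay above the highest control library, replicate 1, and the treated libraries lay closer together (SD 15.3 CPM) than the control ones (SD 55.6 CPM). The means of 950.0 and 1247 CPM gave a log2 fold change of 0.39 (SE 0.05, 95% interval 0.28 to 0.51, edgeR adjusted p = 6.05e-05), or 1.31-fold. By size this was an ordinary change in these data, since 21.3% of tested genes moved further in either direction.

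The gene shares exon bases with others, which bears on its counts because the strand and overlap settings of the counting are not given in the sources used here. Flicr, a long noncoding RNA known to restrain Foxp3 from the same locus, lies on the same strand and shares 853 annotated exon bases with it. Its mean was 6.33 ± 0.405 CPM without and 6.48 ± 0.566 CPM with BMS309403 (SD, n = 4), with a log2 fold change of 0.04 (edgeR adjusted p = 0.781). Its counts came to 0.580% of those of Foxp3. On the opposite strand, Ppp1r3f shares 266 exon bases and was higher (5.09 to 6.71 CPM), and Ccdc22 shares 590 and was lower (1.68 to 1.21 CPM). Their counts came to 0.540% and 0.129% of those of Foxp3.

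RefSeq lists promoter windows, 250 bases before to 50 after a start site, for Foxp3, Ikzf1 and Ikzf5 (build GRCm38.p6). The first windows of Foxp3, which rose, and of Ikzf1, which did not pass the test, are shown. Their shares of G and C lie on opposite sides of the median, with 11.4% and 99.3% of all windows lower. They run from chrX:7579426-7579725 (plus strand) and chr11:11685675-11685974 (plus strand). Capitals mark TATAAA and TGGGAA, the core letters that Ikaros proteins bind, on either strand.
Foxp3: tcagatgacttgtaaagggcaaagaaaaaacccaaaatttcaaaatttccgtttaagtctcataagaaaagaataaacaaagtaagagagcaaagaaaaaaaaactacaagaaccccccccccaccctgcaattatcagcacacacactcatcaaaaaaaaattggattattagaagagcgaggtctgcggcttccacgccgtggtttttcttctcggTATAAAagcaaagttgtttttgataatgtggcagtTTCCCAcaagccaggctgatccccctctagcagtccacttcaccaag
Ikzf1: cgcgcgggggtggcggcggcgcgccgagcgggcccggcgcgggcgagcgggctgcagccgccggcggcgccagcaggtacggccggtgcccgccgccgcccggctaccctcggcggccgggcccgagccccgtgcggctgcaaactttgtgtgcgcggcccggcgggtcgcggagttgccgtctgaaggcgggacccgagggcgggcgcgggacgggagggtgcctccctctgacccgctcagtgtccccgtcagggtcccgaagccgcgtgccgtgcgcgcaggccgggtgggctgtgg

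The Foxp3 window holds 40.7% G and C and 6 CG pairs, and the Ikzf1 window holds 81.3% and 52, against a median of 52.7% and 7 over 32851 windows. Both genes have a second window with a share of G and C nearer the median, at 47.7% and 8 for Foxp3 and 49.0% and 2 for Ikzf1. Neither second window holds TATAAA or TGGGAA. The window of Ikzf5 holds 65.7% and 27. Each of 5 motifs was searched on both strands. TATAAA starts at position -32 of the Foxp3 window, counted from the start site, and stands in 13.6% of all windows. TGGGAA, read on the minus strand as TTCCCA, starts at position 4 and stands in 25.6%. It overlaps a match of the NFAT core GGAAA, read as TTTCC from position 3, which has a further match at -205 and stands in 61.3% of windows. The forkhead core GTAAACA (3.65% of windows) and the Ets core CCGGAAG (8.86%) are not in these letters. Neither TATAAA nor TGGGAA is in the windows of Ikzf1 or Ikzf5. Such matches describe letters and not sites.

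Within the Ikaros family the second zinc finger found in each member is shown. It is the finger through which thalidomide-type drugs mark Ikaros and Aiolos for degradation in human cells. Its coding bases from the longest coding transcript of each gene in GENCODE M21 (GRCm38) are given, with the codons of the 4 zinc-holding residues in capitals. Each lies within a single coding exon. The positions are chr11:11754024-11754086 (plus strand, exon 6), chr1:69570581-69570643 (minus, exon 5), chr11:98488940-98489002 (minus, exon 5), chr10:128640229-128640291 (minus, exon 5) and chr7:131392501-131392563 (minus, exon 4), in the order shown.
Ikzf1: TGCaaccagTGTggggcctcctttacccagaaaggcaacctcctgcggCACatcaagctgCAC
Ikzf2: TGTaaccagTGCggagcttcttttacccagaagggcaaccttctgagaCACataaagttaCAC
Ikzf3: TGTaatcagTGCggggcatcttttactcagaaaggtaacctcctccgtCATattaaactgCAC
Ikzf4: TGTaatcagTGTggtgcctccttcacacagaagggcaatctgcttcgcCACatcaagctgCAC
Ikzf5: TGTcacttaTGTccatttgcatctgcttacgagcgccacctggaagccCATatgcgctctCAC

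Over these 63 bases Ikzf1 matches Ikzf2 at 51, Ikzf3 at 51 and Ikzf4 at 53, but Ikzf5 at 26. Fingers were paired by their order in the protein alone. Fewer were found in Ikzf5, so its second finger need not be the counterpart of the others, and 26 can understate its likeness. A search by the spacing of zinc-holding residues found 5 fingers of 63 bases in the coding sequence of each of Ikzf1 to Ikzf4. In that of Ikzf5 it found 4, of which 1 was 66 bases long. Fingers spaced otherwise are missed by such a search, so these counts can be below the full number. The likeness does not extend to long identical runs. The longest exact stretch shared by any 2 of the 6 genes' transcripts was 32 bases, between Ikzf2 and Ikzf4, and it was 26 between Ikzf1 and Ikzf3. Ikzf2 and Ikzf4 both rose. Ikzf1, which also shares up to 24 bases with Ikzf4, did not pass the test. Ikzf3 shares up to 20 bases with Ikzf2 and with Ikzf4, and moved opposite to both. Whether shared stretches bear on the counts was not tested.

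Ikzf2 (ENSMUSG00000025997, chr1:69531214-69687245, minus strand), which encodes Helios, had the largest change of the 6. Control replicates 1 to 4 were at 26.4, 27.5, 30.6 and 37.5 CPM, and the treated ones at 50.2, 53.6, 53.2 and 60.2 CPM. Replicate 4 was the highest library of both groups, and the groups stayed apart. The log2 fold change was 0.83 (SE 0.10, 95% interval 0.59 to 1.07, edgeR adjusted p = 4.96e-05), or 1.78-fold, and 5.91% of tested genes moved further.

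Ikzf4 (ENSMUSG00000002578, chr10:128630843-128645991, minus strand), which encodes Eos, rose nearly as much as Foxp3. It was at 179, 187, 192 and 201 CPM in the control libraries. In the treated libraries it was at 233, 262, 244 and 253 CPM, each above every control library. The log2 fold change was 0.39 (SE 0.05, 95% interval 0.27 to 0.51, edgeR adjusted p = 9.29e-05), or 1.31-fold. The number of Ikzf4 counts per Foxp3 count was 0.201 ± 0.0208 without and 0.199 ± 0.00921 with BMS309403 (SD, n = 4). The ranges of that ratio, 0.174 to 0.224 and 0.189 to 0.209, overlapped. In control the library with the most Foxp3, replicate 1, had the least Ikzf4, and replicate 4 had the least Foxp3 and the most Ikzf4. This was not particular to Ikzf4. Ikzf1, Ikzf2 and Ikzf3 were also lowest in control replicate 1 and highest in control replicate 4, while Ikzf5 was highest in control replicate 1.

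Ikzf3 (ENSMUSG00000018168, chr11:98464902-98546031, minus strand), which encodes Aiolos, was the member that fell. Its level went from 131, 144, 143 and 164 CPM in control to 117, 119, 110.1 and 118 CPM with BMS309403. Every treated library lay below the lowest control library, replicate 1, though by a narrow gap. The log2 fold change was -0.33 (SE 0.06, 95% interval -0.47 to -0.18, edgeR adjusted p = 0.00139), and 27.2% of tested genes moved further. Aiolos is known from B cell maturation and from helper T cells of the IL-17 lineage, where it represses Il2. The B cell marker Cd79b was lower as well (2.05 to 2.20 CPM in control, 1.44 to 1.58 CPM treated), and its part in the fall of Ikzf3 was not tested. Il2 itself was too low to be tested, with means of 0.0208 CPM without and 0.0432 CPM with BMS309403.

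Ikzf1 (ENSMUSG00000018654, chr11:11685003-11772926, plus strand), which encodes Ikaros, was at 429, 456, 437 and 475 CPM in the control replicates. The treated ones were at 461, 428, 432 and 421 CPM. The groups overlapped. Its log2 fold change was -0.05 (95% interval -0.16 to 0.07, edgeR adjusted p = 0.479). Ikzf5 (ENSMUSG00000040167, chr7:131388652-131410521, minus strand) encodes Pegasus, the most distant member, known from inherited low platelet counts. Control replicates were at 46.2, 41.2, 43.8 and 41.4 CPM, treated ones at 46.7, 43.7, 44.7 and 46.5 CPM. Here too the groups overlapped, and the log2 fold change was 0.07 (95% interval -0.05 to 0.20, edgeR adjusted p = 0.268). Of its 5721 annotated exon bases, 4652 are shared with Pstk on the opposite strand, whose own counts were 31.7% of those of Ikzf5, so the level of Ikzf5 is uncertain if reads were not counted by strand. Pstk, which encodes a kinase for selenocysteine synthesis, had a log2 fold change of -0.08 (edgeR adjusted p = 0.361).

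**Figure D2:**
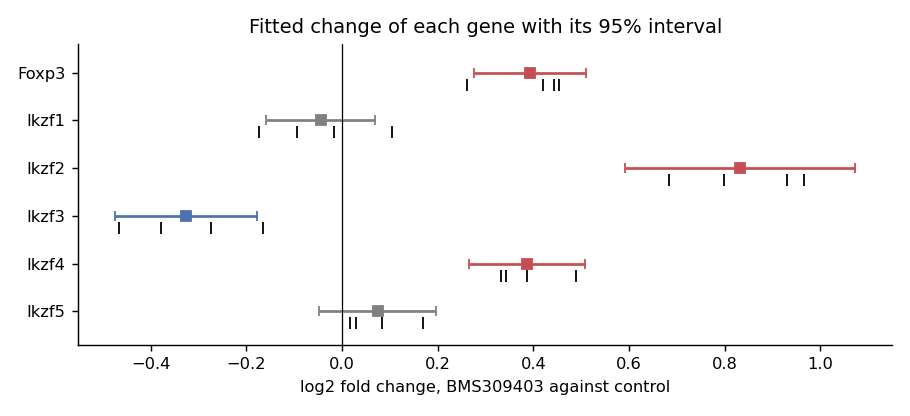
Fitted log2 fold change of each gene, BMS309403 against control (x axis), with its 95% interval (squares and bars; red higher, blue lower, grey not past the test). Black ticks give the log2 difference between the treated and control library of the same replicate number, which is above 0 in 4 of 4 for Foxp3, Ikzf2, Ikzf4 and Ikzf5, in 0 of 4 for Ikzf3 and in 1 of 4 for Ikzf1.

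Taken by replicate number, the treated minus control difference on the log2 scale ran from 0.26 to 0.45 for Foxp3 and from 0.68 to 0.97 for Ikzf2. It ran from 0.33 to 0.49 for Ikzf4 and from -0.47 to -0.17 for Ikzf3. The smallest differences of Foxp3 and of Ikzf3 both came from number 1. For Ikzf5 all 4 differences were above 0 but none exceeded 0.17, and for Ikzf1 they ran from -0.17 to 0.11.

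Levels were compared between genes only per length, as CPM per kb of annotated exons. On that scale the order in control was Foxp3 (208 ± 12.1), Ikzf1 (77.8 ± 3.53), Ikzf4 (31.7 ± 1.58), Ikzf3 (16.6 ± 1.54), Ikzf5 (7.54 ± 0.413) and Ikzf2 (2.62 ± 0.430; SD, n = 4). The order was the same in treated libraries, with Foxp3 at 272 ± 3.34, Ikzf1 at 75.4 ± 3.11, Ikzf4 at 41.4 ± 2.07, Ikzf3 at 13.3 ± 0.473, Ikzf5 at 7.93 ± 0.257 and Ikzf2 at 4.68 ± 0.360. No 2 neighbours in the order overlapped over the 4 libraries of either group, except that with the length of the longest transcript Ikzf3 (28.5 to 35.5) and Ikzf4 (34.7 to 39.1) overlapped in control. The distance from Foxp3 to Ikzf1 went from 2.67 times to 3.61 times, and that from Ikzf5 to Ikzf2 from 2.87 times to 1.70 times. Helios RNA, the member that rose most, thus stayed the scarcest of the 6 per length.

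The makeup of the Ikaros family moved from Ikaros and Aiolos towards Eos and Helios, while its summed level per length was 136 ± 6.45 without and 143 ± 1.85 CPM per kb with BMS309403 (SD, n = 4), with overlapping ranges. Ikzf1 made up 57.1% ± 0.747 of the family in control and 52.8% ± 1.81 in treated libraries. Ikzf3 went from 12.2% ± 0.547 to 9.30% ± 0.265. Ikzf4 went from 23.3% ± 0.437 to 29.0% ± 1.54, and Ikzf2 from 1.92% ± 0.229 to 3.28% ± 0.274. For these 4 genes the 4 libraries of one group lay apart from those of the other. Ikzf5 held 5.55% ± 0.542 and 5.56% ± 0.179, with overlap. The shares depend on the length used: with that of the longest transcript Ikzf3 held 18.7% ± 0.783 and 14.5% ± 0.383, over 1.5 times more, and the direction of each of the 4 shifts was the same. The shares follow from the levels above and were not tested on their own.

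**Figure D3:**
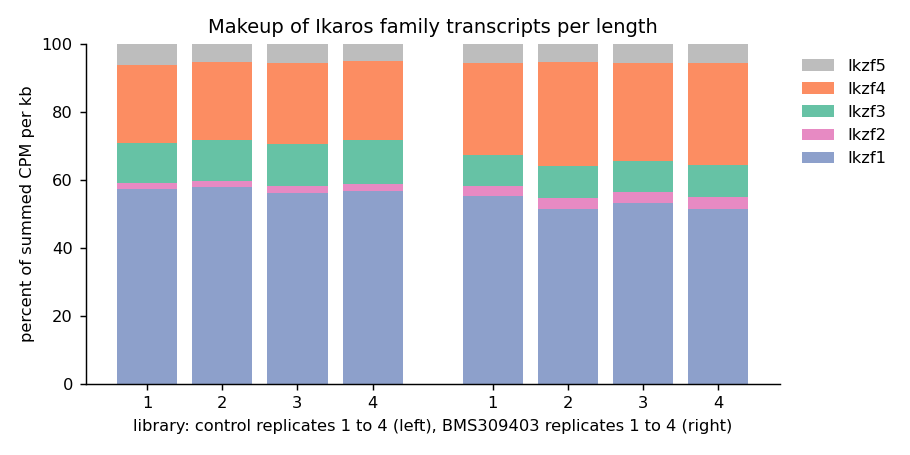
Share of each Ikaros family gene in the family's summed CPM per kb (y axis, percent) in each of the 8 libraries. The Ikzf4 segment spans 22.9% to 23.9% in control and 26.9% to 30.5% in BMS309403 libraries, and the thin Ikzf2 segment widens from at most 2.23% to at least 2.99%.

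Ikzf2 and Ikzf3 moved in opposite ways without overlap, so their ratio had to lie apart between the groups. Ikzf2 counts per Ikzf3 count were 0.201, 0.191, 0.214 and 0.229 in control replicates 1 to 4. They were 0.430, 0.450, 0.483 and 0.508 in the treated ones. Against Foxp3, the Ikzf2 ratio overlapped between the groups (0.0256 to 0.0416 and 0.0407 to 0.0488), while the Ikzf3 ratio did not (0.127 to 0.182 and 0.0873 to 0.0960). The separation of the Ikzf3 ratio also follows from the levels above, and no ratio was tested on its own.

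The labelled cell type was checked against its markers. All 10 T cell markers were present, summing to between 3716 and 3908 CPM without BMS309403 and between 3407 and 3690 CPM with it. Of them 7 were lower and 2 higher, beside 18.1% and 18.7% of all tested genes, and 1, Cd4, did not pass the test. Cd3e and Cd3d, parts of the T cell receptor complex, were 1.38-fold and 1.29-fold lower, and Cd247 and Cd2 were 1.22-fold and 1.14-fold higher. The part of this shift in the changes of Foxp3 and the Ikaros genes was not tested. Lists for CD8 T cells, B cells, natural killer cells, macrophages, dendritic cells and erythroid cells summed to at most 14.9 CPM in any library. B cell markers, which matter because B cells also express Ikzf1 and Ikzf3, summed over all 9 genes to between 8.63 and 12.6 CPM without BMS309403 and between 7.21 and 11.4 CPM with it, with none at 0 (exact two-sided permutation p = 0.371, adjusted over 6 lists 0.446). The sum was lower in each of the 4 same-numbered pairs, with a mean difference of -1.26 ± 0.138 CPM (SD, n = 4; exact sign-flip p = 0.125, the smallest that 4 pairs allow, adjusted 0.150). The macrophage sum was also lower in all 4 pairs (mean difference -0.643 ± 0.451 CPM). The natural killer (0.177 ± 0.183 CPM), dendritic (5.16 ± 1.41 CPM) and erythroid (0.570 ± 0.444 CPM) sums were higher in all 4. Each had the same sign-flip p, which any list with 4 differences of the same sign gets. That p therefore does not rank the lists, and the B cell differences varied least. Of the 9 B cell genes Cd79b was called lower (log2 fold change -0.49, edgeR adjusted p = 0.00691), and the median log2 fold change was -0.26. Pax5 was called lower with the replicate block (edgeR adjusted p = 0.0213) and without BMS309403 replicate 3 (0.0130). Ebf1, Ms4a1 and Blnk had positive log2 fold changes (0.63, 0.37 and 0.08), and the others had negative ones. Ebf1 was called higher without control replicate 4 (edgeR adjusted p = 0.0449). Of the macrophage markers Adgre1 was called lower, from 0.565 to 0.137 CPM (edgeR adjusted p = 0.000940). Dendritic cell markers went from 3.96 to 4.42 CPM to 8.17 to 11.5 CPM (exact permutation p = 0.0286, the smallest 4 against 4 allows, adjusted 0.171). A single gene, Zbtb46, carried this (3.60 to 8.89 CPM), while Flt3, Itgax, Xcr1, Siglech and Clec9a stayed under 0.35 CPM on average and Cd209a was at 0.

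Around the 6 genes, 8 lists of known partners, regulators and targets were read from the same fit. The counts of each list stand beside 18.7% of all tested genes called higher and 18.1% called lower. For each list up to 2 called genes with the largest change in each direction are named, among those with a mean of at least 5 CPM. Further genes were picked after their values were seen. Genes known to be raised by Foxp3 moved in both directions. Of 20 fixed for this list 10 were higher and 7 lower, with a median log2 fold change of 0.12, against 0.01 for all tested genes. Cd83, a surface molecule of the immunoglobulin family, was 1.98-fold higher, and Ebi3, a subunit of IL-35, 1.62-fold higher (12.6 to 20.4 CPM). Tnfrsf18 (GITR), Tnfrsf4 (OX40), Socs2 and Il2ra, the IL-2 receptor alpha chain, were also higher, with log2 fold changes of 0.66, 0.58, 0.51 and 0.41. Il2ra went from 2562 to 3412 CPM.

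In the same list Nrp1, the semaphorin receptor neuropilin-1, was 1.89-fold lower (154 to 81.4 CPM) and Tigit, an inhibitory receptor, 1.82-fold lower (24.7 to 13.5 CPM). The folate receptor gene Izumo1r and the ectoenzyme genes Nt5e (CD73) and Entpd1 (CD39) were lower, with log2 fold changes of -0.83, -0.74 and -0.39. Ctla4, an inhibitory receptor that Tregs use, did not pass the test (log2 fold change 0.06, 95% interval -0.11 to 0.23, edgeR adjusted p = 0.521). Itgae and Gpr83 did not pass either. Il10 was higher at 0.798 to 1.38 CPM, and its call was lost when any of 5 libraries was left out (adjusted p up to 0.0947, without control replicate 2).

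Among 12 genes known to be held down by Foxp3, 3 (Il2, Il21 and Il17a) were too low to be tested. Of the other 9, 4 were higher and 2 lower, with a median of 0.13. Ifng, the gene of interferon gamma, was 2.42-fold higher (4.20 to 10.0 CPM), and Il7r, the IL-7 receptor, 1.59-fold higher. Cd40lg, which helps B cells, was 1.46-fold lower and the receptor kinase gene Zap70 1.29-fold lower. Without control replicate 2 or without control replicate 3 only 2 members remained higher, since Ifng (adjusted p = 0.0511 and 0.0516) and Il4 (0.0558 and 0.107) lost their calls.

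**Figure D4:**
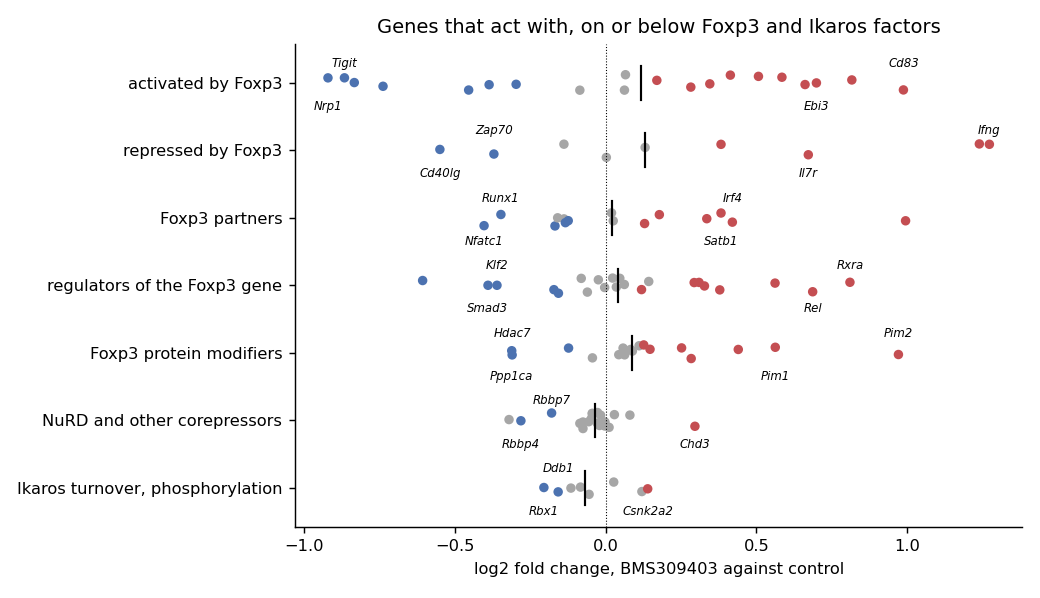
Log2 fold change, BMS309403 against control (x axis), of each tested gene in 7 lists; red was called higher, blue lower, grey not past the test, and black bars are list medians. Points are shifted up or down at random within a row. Genes raised or held down by Foxp3 spread to both sides, while corepressor genes stay close to 0, with 17 of 20 not past the test.

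DNA-binding partners of Foxp3 moved in both directions, with 6 of 15 higher, 5 lower (3 with no filter on low counts) and a median of 0.02. Irf4, which with Foxp3 acts in effector Tregs, was 1.34-fold higher (613 to 820.0 CPM), and Satb1, a chromatin organizer, 1.30-fold higher. Nfatc1, a factor of T cell receptor signalling, was 1.32-fold lower (172 to 130.1 CPM). Runx1, the partner that also binds the Foxp3 gene, was 1.27-fold lower (143 to 113 CPM). Of the other forkhead box P genes, Foxp1 was 1.10-fold lower (a call lost with no filter on low counts, adjusted p = 0.0504), Foxp4 did not pass the test and Foxp2 was too low to be tested.

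Among 22 regulators of the Foxp3 gene, 8 were higher and 5 lower, with a median of 0.04. Rxra, the retinoid X receptor alpha, was 1.75-fold higher (25.6 to 44.8 CPM), and Rel, the NF-κB subunit c-Rel that binds the Foxp3 locus, 1.61-fold higher (167 to 269 CPM). Smad3, which carries the TGF-β signal, was 1.31-fold lower and Klf2 1.28-fold lower. Stat5a, which carries the IL-2 signal, was higher by 0.29 on the log2 scale, and Stat5b did not pass the test (0.04). Of the enzymes that add or remove DNA methylation, Dnmt1 and Tet3 did not pass the test, nor did Tet2 except with the replicate number as a block (adjusted p = 0.0230), while Tet1, at 5.11 CPM in control, was lower by 0.61 on the log2 scale. Without BMS309403 replicate 3 or without BMS309403 replicate 4, 3 regulators in place of 5 were called lower.

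Of 19 genes whose products modify or stabilize the Foxp3 protein, 17 were tested, 7 were higher and 3 lower, with a median of 0.09. Over the alternatives 5 to 9 were higher. Hdac6 was near the threshold (edgeR adjusted p = 0.0493). It lost its call with the DESeq2 Wald test (adjusted p = 0.0617) and limma-voom (adjusted p = 0.0511), among others. Stub1 lost its call in some alternatives as well. The kinase genes Pim2 and Pim1 were 1.96-fold (59.6 to 117 CPM) and 1.48-fold higher. Hdac7, a deacetylase, and Ppp1ca, a phosphatase subunit, were both 1.24-fold lower. The ubiquitin ligase gene Traf6 and the acetyltransferase gene Crebbp were higher by 0.44 and 0.28 on the log2 scale. The deubiquitinase gene Usp7 and the acetyltransferase genes Kat5 and Ep300 did not pass the test.

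In the list of NuRD and other corepressors, complexes that Ikaros proteins work with, 1 of 20 was higher and 2 lower, beside 18.7% and 18.1% of all tested genes, with a median of -0.04. Chd3, a NuRD remodeller, was 1.23-fold higher (550 to 675 CPM) and the histone binders Rbbp4 and Rbbp7 were 1.22-fold and 1.13-fold lower. Chd4, another NuRD remodeller, did not pass (log2 fold change -0.04, 95% interval -0.15 to 0.06). With the replicate number as a block, 2 were higher and 5 lower, beside 26.6% and 25.8% of all genes. Rbbp7 lost its call when any of 5 libraries was left out (adjusted p between 0.0638 and 0.0976), which left 1 lower.

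The CRL4 ubiquitin ligase with cereblon degrades Ikaros and Aiolos in human cells given thalidomide-type drugs, and Ikaros is phosphorylated by casein kinase 2. In that list of 8 genes 1 was higher and 2 lower, beside 18.7% and 18.1% of all tested genes, with a median of -0.07. Rbx1 and Ddb1, ligase subunits, were 1.15-fold and 1.12-fold lower, Ddb1 not without BMS309403 replicate 2 (adjusted p = 0.0538). Csnk2a2, a catalytic subunit of casein kinase 2, was 1.10-fold higher. Crbn, which encodes cereblon, had a log2 fold change of 0.12 and did not pass (adjusted p = 0.0965). With the replicate block 2 of the 8 were higher and 4 lower, beside 26.6% and 25.8% of all genes. Crbn was among the higher (edgeR adjusted p = 0.00537). Without BMS309403 replicate 1, Crbn was also called (adjusted p = 0.0191), which made 2 higher.

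Profiles over the 8 libraries were compared as the root mean square difference between log2 levels, each centred on its own mean. Over 8694 genes of at least 10 CPM, those nearest to Foxp3 were Shmt2 (distance 0.0249), Gpbp1 (0.0319), Traf4 (0.0344), Alg1 (0.0394) and Cox18 (0.0399). Their log2 fold changes lay between 0.37 and 0.45. Ikzf4 was the nearest member to Foxp3, at 0.102, with 5.33% of the searched genes nearer. The distance spans both groups, so it tends to be small for genes with nearly the same log2 fold change, such as these 2 (both 0.39). It is therefore no separate sign of likeness. For Ikzf2 the nearest genes were Pla2g4f (0.0741), Dennd4a and Trim56. Cenpf and Elf4 were among the 3 nearest to Ikzf3, and those of Ikzf4 were Ppp1r16b (0.0145), Disp1 and Lgals8. Foxo1, Pik3r4 and Kbtbd2 lay nearest to Ikzf1, and Rad17, Cul1 and Zfp24 nearest to Ikzf5. The order is unstable: of the 20 nearest genes in all, 8 to 12 stayed among the nearest when 1 library was left out.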

How the data were processed

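RNA from 8 libraries, 4 control and 4 BMS309403, was measured by stranded poly(A) sequencing. The deposited values are whole-number read counts per Ensembl gene, not normalized. The submitters' processing notes name STAR, featureCounts, DESeq2, deepTools and GRCm38, without versions or roles. Groups and replicate numbers came from the titles. All 53465 IDs were kept, of which 105 had no symbol in GENCODE M21 and held 0.0063% of counts. Totals were 32923433 to 44644485 counts per library. No 2 replicates of 1 group agreed within sampling noise (chi-square per degree of freedom 3.08 to 24.2).

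Genes were tested with edgeR 4.0.16 in R 4.3.3 by the quasi-likelihood test after filterByExpr and TMM, with treatment alone in the model and 6 residual degrees of freedom. Adjusted p-values of the main fit are Benjamini-Hochberg over 14443 genes, unless named as over marker lists. Those of each alternative were adjusted over the genes tested in that alternative. The script was tested on simulated data. Alternatives were DESeq2 1.42.0, limma-voom (limma 3.58.1), other scalings and filters, a replicate block and each library left out. Members and lists were chosen with earlier results of these data known. Named from each list were the 2 called genes with the largest change in each direction at a mean of at least 5 CPM, and the genes of nearest profile (5 for Foxp3, 3 for each Ikaros gene, at least 10 CPM, log2 of CPM plus 0.5); others were named after their values were seen. A partner of Foxp3, taken out of its list, and a gene of nearest profile to Ikzf3 are not reported here.

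Same-numbered libraries deviated together over all genes, with correlations of 0.384, 0.145, 0.106 and 0.264 for numbers 1 to 4. With a prior count of 0.5 in place of 2, that of number 3 was 0.0900. The labels give the numbers but no shared mouse or day.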

Additional observations from a re-analysis of the deposited data

Results flagged for a closer look

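In 3 of the 60 groups of 4 libraries examined, 1 library stood apart from the other 3 by Dixon's criterion. This is about 1 in 20, the rate that chance gives for independent groups. These groups share libraries and values, so the rate does not tell whether chance made the flags. Ikzf3 counts per Foxp3 count were 0.0873 in BMS309403 replicate 3, below the other treated libraries at 0.0947 to 0.0960. The summed level of T cell markers was 3716 CPM in control replicate 1, below the other control libraries at 3879 to 3908 CPM. Pstk, which overlaps Ikzf5 on the opposite strand, was at 12.3 CPM in BMS309403 replicate 1, below the others at 13.9 to 14.0 CPM.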

How the results depend on the processing

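All 6 members kept their direction and their side of the threshold in 15 of 15 alternatives (scaling, filter, replicate block, DESeq2, limma-voom and each library left out). The log2 fold change ranged from 0.37 to 0.43 for Foxp3, 0.77 to 0.95 for Ikzf2, -0.37 to -0.27 for Ikzf3 and 0.36 to 0.42 for Ikzf4, with adjusted p of at most 0.000595, 0.000394, 0.00608 and 0.000729. It ranged from -0.08 to -0.02 for Ikzf1 and 0.05 to 0.11 for Ikzf5, with adjusted p of at least 0.224 and 0.0848. With the replicate number as a block, 3845 genes were called higher and 3728 lower in place of 2694 and 2617. The block gave Foxp3 0.39, Ikzf1 -0.05, Ikzf2 0.84, Ikzf3 -0.32, Ikzf4 0.39 and Ikzf5 0.07 on the log2 scale. It changed no member's call, and the list counts it moved by over 1.5 times stand with their lists, besides B cell markers (2 lower in place of 1) and erythroid markers (1 higher in place of 0).

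Dividing by the longest annotated transcript in place of all exons raised the levels per length, since that length is shorter, and kept their order, though Ikzf3 and Ikzf4 then overlapped in control. The control and BMS309403 levels became 248 and 325 CPM per kb for Foxp3, 87.0 and 84.3 for Ikzf1, 3.28 and 5.85 for Ikzf2, 31.6 and 25.2 for Ikzf3, 36.9 and 48.2 for Ikzf4, and 9.74 and 10.2 for Ikzf5. Shares of the family by that length, chosen after seeing the data, became 51.7% and 48.5% for Ikzf1, 18.7% and 14.5% for Ikzf3, 21.9% and 27.7% for Ikzf4, and 5.80% and 5.89% for Ikzf5, and those of Ikzf2 moved by less than 1 SD. Sign flips within same-numbered pairs, also added later, left none of the 6 marker lists under the threshold, which 4 pairs cannot reach. Leaving out 1 library kept 8 to 12 of the 20 genes of nearest profile; the cause was not tested. With a filter of at least 1 CPM in 4 libraries the macrophage marker Adgre1, at 0.565 CPM in control, was no longer tested. The number of libraries and the low counts of such markers limit what can be told of them.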
